A study of Mus musculus with 8 samples.

Results

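The comparison described here was between cerebral cortices labelled Mboat7-/- and Mboat7+/- at E12.5 (E, embryonic day), with 2 cortices per genotype, each from 1 embryo, out of 8 cortices in the series. The members were all genes with at least 10 counts in 2 or more of the 4 cortices. Of 78298 genes in the table, 29986 had a count in any cortex and 16443 met this rule, and 15603 of these (94.9%) had a symbol and a transcript length in the references used here. Both groups were mice of a line maintained on C57BL/6N, and no other allele or treatment was given in the labels. The labelled Mboat7-/- embryos carried a knockout in every cell, and the controls were heterozygous, so both groups lacked at least 1 functional copy of Mboat7. Poly(A) RNA was sequenced from directional libraries, and the other 4 cortices of the series were taken at E11.5 and sequenced by another provider. The question was which transcripts differ between the genotypes at this stage.

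Mboat7 encodes a lysophosphatidylinositol acyltransferase of the endoplasmic reticulum that attaches arachidonic acid to lysophosphatidylinositol, which sets the acyl chains of phosphatidylinositol and of the phosphoinositides made from it. Membrane lipid supply is controlled largely through SREBP transcription factors, which are held back by INSIG proteins and which drive the genes of sterol and fatty acid synthesis. Shortage of amino acids or stress in the endoplasmic reticulum raises translation of ATF4, a transcription factor for amino acid transporters and synthetases. At E12.5 the cortex consists of dividing radial glial cells, which line the ventricle, a small number of intermediate progenitor cells (IPCs) and the first neurons.

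Total counts lay between 20799311 and 23330432 per cortex. Read counts per gene are given below in the order Mboat7+/- replicate 1 and 2, then labelled Mboat7-/- replicate 1 and 2, and log2 fold changes are of labelled Mboat7-/- over Mboat7+/-. Mboat7 itself had 739, 782, 730 and 729 counts, a log2 fold change of -0.17 ± 0.10 (SE, n = 2 per genotype) with an adjusted p of 0.953. Which part of the gene the knockout lacks is not stated in the sources used here, so these counts neither bear out nor contradict the labels, and every direction below rests on the labels. Xist had 0, 0, 0 and 2 counts and Y-linked genes were counted in all 4 cortices (Ddx3y had 619, 443, 759 and 771), so the 4 embryos did not differ in sex chromosomes. Markers of dorsal telencephalon, radial glial cells, IPCs and neurons were all present, and so were those of ventral telencephalon, blood, vessels, macrophages and mesenchyme. Summed levels of the 4 blood markers ran from 1637 to 4020 CPM (counts scaled to the normalized library size), whereas the eye markers summed to 0.663 CPM at most, with Tyr at 0. In whole tissue, fewer cells of a type and less RNA per cell cannot be told apart.

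The cortices did not pair up by genotype. Mboat7+/- replicate 1 and labelled Mboat7-/- replicate 1 were the most alike, with a chi-square of 4.62 per degree of freedom, and the 2 replicates numbered 2 were the least alike, with 20.5, against 8.87 and 10.7 for the pairs within a genotype. Nothing in the sources states whether embryos shared a litter, so p-values measure the spread between these 4 samples. Over all genes tested, the median log2 fold change was 0.00. A gene was counted as beyond the replicate difference where both labelled Mboat7-/- values lay on 1 side of both Mboat7+/- values and the genotype means differed by more than either pair of replicates did. This held for 10.5% of all genes in the higher direction and 9.34% in the lower, and the values of the 2 genotypes did not overlap for 16.9% and 15.2%. An unadjusted p under 0.05 in edgeR's quasi-likelihood test was reached by 463 genes that were higher (2.82%) and 228 that were lower (1.39%). These shares are the background for every count of members from this fit given below.

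At a false discovery rate (FDR) under 0.05 and a log2 fold change of 1 or more in either direction, 3 genes were called, 0.0182% of those tested. The unnamed gene ENSMUSG00000142665 fell, from 154 and 127 counts in the controls to 7 and 15 in the labelled Mboat7-/- cortices (log2 fold change -3.77 ± 0.36, edgeR quasi-likelihood test with Benjamini-Hochberg adjustment, adjusted p = 0.00927). G530011O06Rik, a transcript without a described function, rose from 3 and 1 counts to 100 and 70 (adjusted p = 0.0106), a ratio of 39.5 with a 95% exact binomial interval of 15.1 to 146 that covers counting error only. The third, ENSMUSG00000130346, rose from 12 and 8 counts to 83 and 98 (3.06 ± 0.38, adjusted p = 0.0348). No Mboat7+/- value overlapped a labelled Mboat7-/- value in any of the 3, and each difference between genotypes was several times the difference within one. All 3 are low, under 8 CPM in every cortex. At E11.5 G530011O06Rik had 674 and 183 counts in Mboat7+/- and 623 and 381 in labelled Mboat7-/- cortices, so its level varied widely between embryos of 1 genotype at that stage.

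The labels give each cortex a batch number equal to its replicate number, without saying what the batch was, and cortices of the same number did not deviate together (correlation -0.16). A fit with that number as a block leaves 1 residual degree of freedom per gene, so its p-values lean on spread estimated across genes. It put 410 genes higher and 173 lower at an unadjusted p under 0.05 (3.55% together), the background for blocked counts of members. With the block, 21 genes were called (0.128%), the 3 above among them, and 32 had an FDR under 0.05. Among these 32 were 13 genes with well described products, which are taken up by function: Insig1, Scd1, Cpt1a, Slc7a3, Chac1, Hrk, Otp, Dlk1, Rgs5, Arrdc3, Cabp1, Cnr1 and Hbb-bh1. The block also called genes whose replicates differed more than the genotypes, such as ENSMUSG00000122225 with 1, 144, 0 and 573 counts, so each blocked value is given beside the counts. DESeq2 had 10 genes at an FDR under 0.05, the 3 called above with Insig1 (0.000344), Scd1 (0.00319), Hrk (0.00419), Cpt1a (0.0275), Dlk1 (0.00486), Otp (0.00319) and Tsen34 (0.0275). The plot of the 24 leading named genes shows each of them by cortex.

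**Figure D1:**
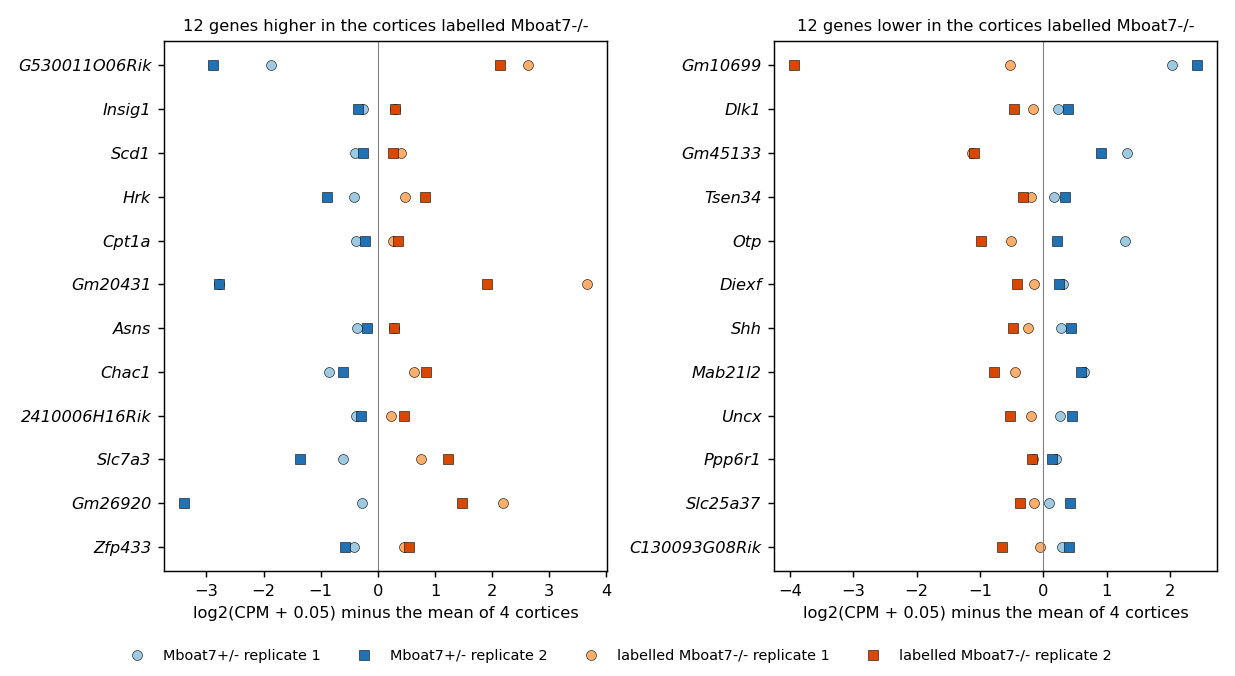
Level of 24 genes in each of the 4 E12.5 cortices, as log2(CPM + 0.05) minus the mean of the 4 (horizontal axis), for the 12 higher (left) and 12 lower (right) genes of smallest p that had a symbol, at least 1 CPM on average and a difference beyond the replicate difference. Blue points are Mboat7+/- and orange points labelled Mboat7-/-, circles replicate 1 and squares replicate 2. Insig1, Scd1, Asns and Cpt1a have tight pairs of points, while Gm20431, Gm26920 and Gm10699 rest on counts of 0 in at least 1 cortex.

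The leading gene of the sterol pathway was Insig1, which encodes the endoplasmic reticulum protein that retains SREBP and which is itself a target of SREBP. Its counts were 1721 and 1680 in the controls, and 2806 and 2750 in the labelled Mboat7-/- cortices. Replicates of 1 genotype were nearly equal and the genotypes were well apart, with a log2 fold change of 0.60 ± 0.09 that ranged from 0.56 to 0.65 when any 1 cortex was left out. The adjusted p was 0.123 without and 0.0117 with the replicate block. Of 41 sterol synthesis and control genes tested, 10 were higher at an unadjusted p under 0.05 and 0 were lower, and 13 were higher and 2 lower beyond the replicate difference. Their median log2 fold change was 0.16, beside 0.00 for all genes, and the same with a joint trend of transcript length and GC content removed. Leaving out 1 cortex gave medians from 0.09, without Mboat7+/- replicate 1, to 0.21, without Mboat7+/- replicate 2, and 0.10 without labelled Mboat7-/- replicate 1.

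Within the pathway, early and late steps alike held members beyond the replicate difference and members within it. Of the steps up to isoprenoids, Hmgcs1, which makes HMG-CoA, had 9333, 9948, 13673 and 11985 counts (0.30), and Idi1, an isomerase of the isoprenoid steps, had 2884, 3264, 4771 and 3846 (0.38). In both genes the labelled Mboat7-/- cortices exceeded the controls, with replicate 1 the higher of the pair, whereas Acat2 (0.02), Mvk (0.01) and Pmvk (0.03), which act in the same stretch, did not stand beyond the replicates. Of the later steps, Lss (0.30), which closes the sterol ring, and Msmo1 (0.26), Sc5d (0.23) and Hsd17b7 (0.28), which act on the ring, were also higher beyond the replicates, whereas Sqle (0.13) and Ebp (0.05) were not. Transport genes divided similarly. The sterol carrier Stard4 had 1291, 1257, 1690 and 1587 counts (0.26), while the efflux pump Abcg1 was at -0.18 and Scap, the SREBP escort, at -0.07. Transcripts of the SREBP genes were within replicate spread, at 0.12 for Srebf2 and 0.05 for Srebf1. No sterol gene other than Insig1 reached an FDR under 0.05 with the block. With the block, 5 sterol genes were higher and 0 lower at an unadjusted p under 0.05.

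The 9-base letters TCACNCCAC, used here for a sterol regulatory element, were found on either strand of the window from 250 bases before to 50 bases after the start of 1 of 31 sterol genes with a RefSeq promoter (3.23%), against 1.44% of 27025 genes. The stretch of that 1 promoter, of Hmgcs1, is shown because it was the only match among these genes, with the letters found in capitals (RefSeq, GRCm38.p6).
Hmgcs1 (chr13:119690169-119690267, plus strand): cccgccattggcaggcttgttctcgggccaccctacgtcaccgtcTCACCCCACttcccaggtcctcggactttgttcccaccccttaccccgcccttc

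Among 26 fatty acid synthesis genes tested, 4 were higher and 0 lower at an unadjusted p under 0.05, and 7 higher and 2 lower beyond the replicates. Their median of 0.07 ranged from 0.03, without labelled Mboat7-/- replicate 1, to 0.11, without labelled Mboat7-/- replicate 2. With the block, 2 were higher and 0 lower at an unadjusted p under 0.05. Scd1, the desaturase that makes monounsaturated fatty acids, had 814, 935, 1568 and 1399 counts. Both labelled Mboat7-/- values were far above both controls (0.66 ± 0.10, adjusted p = 0.155 without and 0.00617 with the block). The chain starters and builders were shifted less, with Acaca at 0.23 and Fasn at 0.25 (9881, 10319, 13333 and 12571). The desaturases that make polyunsaturated chains, including arachidonic acid, were at 0.13 for Fads1 and -0.01 for Fads2, and the elongases at -0.01 for Elovl5 and -0.06 for Elovl2. The closely related Scd2 was at 0.08. Elovl7 (1.21) had 43 counts at most.

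Fatty acid oxidation genes had 1 gene higher and 1 lower of 27 at an unadjusted p under 0.05, 5 higher and 1 lower beyond the replicates, and a median of 0.04 that ranged from -0.05, without labelled Mboat7-/- replicate 1, to 0.04. Its outlying member was Cpt1a, which moves long-chain fatty acids towards the mitochondrion. It had 661, 764, 1139 and 1192 counts, again with no overlap (0.60 ± 0.10, adjusted p = 0.228 without and 0.0237 with the block). Of the steps downstream of it, Eci2, an isomerase for unsaturated chains, had 1601, 1619, 2016 and 1925 counts (0.18) and was higher beyond the replicates. Echs1, the 1 lower gene, was lower beyond the replicates at -0.23 (77.9, 89.8, 74.9 and 67.8 CPM). Cpt2 was at -0.05, Acadvl at -0.06 and Hadha at -0.11. The brain form Cpt1c was at 0.06.

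Genes around the MBOAT7 reaction had medians close to that of all genes, 0.00. Of 46 genes of phospholipid acyl chain remodelling, 3 were higher and 0 lower at an unadjusted p under 0.05, and the median was 0.02. Beyond the replicates, 7 were higher and 4 lower. With the block, 0 were higher and 0 lower at an unadjusted p under 0.05. The median was 0.03 without Mboat7+/- replicate 2 and 0.02 without labelled Mboat7-/- replicate 2. The other lysophospholipid acyltransferases had log2 fold changes of 0.24 for Lpcat1, 0.11 for Lpcat3, 0.02 for Mboat2, 0.24 for Mboat1, 0.02 for Lclat1 and -0.04 for Lpcat4, of which Lpcat1 (2305, 2490, 3188 and 2906 counts) and Mboat1 stood beyond the replicates. Acsl4, which activates arachidonic acid, was at 0.24 (424, 472, 602 and 538), and Acsl3 at 0.20. Acsl5 was lower beyond the replicates, at -0.27 (471, 547, 496 and 412). The lysoplasmalogenase gene Tmem86a had 181, 181, 250 and 275 counts (0.43). The related Tmem86b had 141, 139, 124 and 129 (-0.25) and was lower beyond the replicates.

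Of 77 phosphoinositide genes, 5 were higher and 0 lower at an unadjusted p under 0.05, and 12 were higher and 6 lower beyond the replicates. Their median of 0.05 became 0.02 with the length and GC trend removed. It was -0.01 without Mboat7+/- replicate 2 and 0.00 without labelled Mboat7-/- replicate 2. Cdipt, which makes phosphatidylinositol, was at -0.14, and the kinases that make PI(4,5)P2 were at 0.11 for Pip5k1a, 0.09 for Pip5k1b and 0.00 for Pip5k1c. Pik3r1, a regulatory subunit of phosphoinositide 3-kinase, had 1254, 1224, 1568 and 1617 counts (0.25), and the phospholipase C gene Plce1 602, 594, 761 and 871 (0.34). Inpp4b, a phosphatase of PI(3,4)P2, had 26, 26, 49 and 51 (0.83). The catalytic subunit gene Pik3ca (0.09) did not stand beyond the replicates.

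The amino acid response held another group of higher genes. Of 47 ATF4 and amino acid response genes tested, 12 were higher and 0 lower at an unadjusted p under 0.05, and 21 were higher and 1 lower beyond the replicates. Their median was 0.18, also with the length and GC trend removed, and it ranged from 0.13 to 0.21 with any 1 cortex left out. With the replicate block, 8 were higher and 0 lower at an unadjusted p under 0.05. Asparagine synthetase, Asns, had 603, 701, 1045 and 1020 counts (0.56 ± 0.11), and its adjusted p was 0.308 without and 0.0822 with the block. Chac1, which degrades glutathione, had 28, 35, 90 and 102 (1.50 ± 0.29, adjusted p = 0.308 without and 0.0362 with the block). The cationic amino acid transporter Slc7a3 had 17, 10, 50 and 69 (2.02 ± 0.41, adjusted p = 0.371 without and 0.0197 with the block). In each of these genes the lower labelled Mboat7-/- cortex had well over the count of the higher control.

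Members with other roles in the response lay at smaller values on the same side. The related transporter genes Slc7a1 (0.29) and Slc7a5 (0.26), the stress gene Sesn2 (0.47), the transcription factor genes Ddit3 (0.54), Jdp2 (0.56) and Atf4 itself (0.20), and the proline enzyme gene Pycr1 (0.27) were each higher beyond the replicates. Serine synthesis genes were not, with Phgdh at -0.13, Psat1 at -0.08, Psph at 0.01 and Shmt2 at -0.03. Of the tRNA synthetase genes, Yars (0.17) and Lars (0.15) were higher beyond the replicates, while Aars, Eprs, Gars, Mars, Nars and Sars lay between -0.02 and 0.06 and Wars was at -0.17. Trib3, a target that restrains the response, went the other way with 48, 63, 44 and 30 counts (-0.69). Fgf21 had 0 counts in all 4 cortices.

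**Figure D2:**
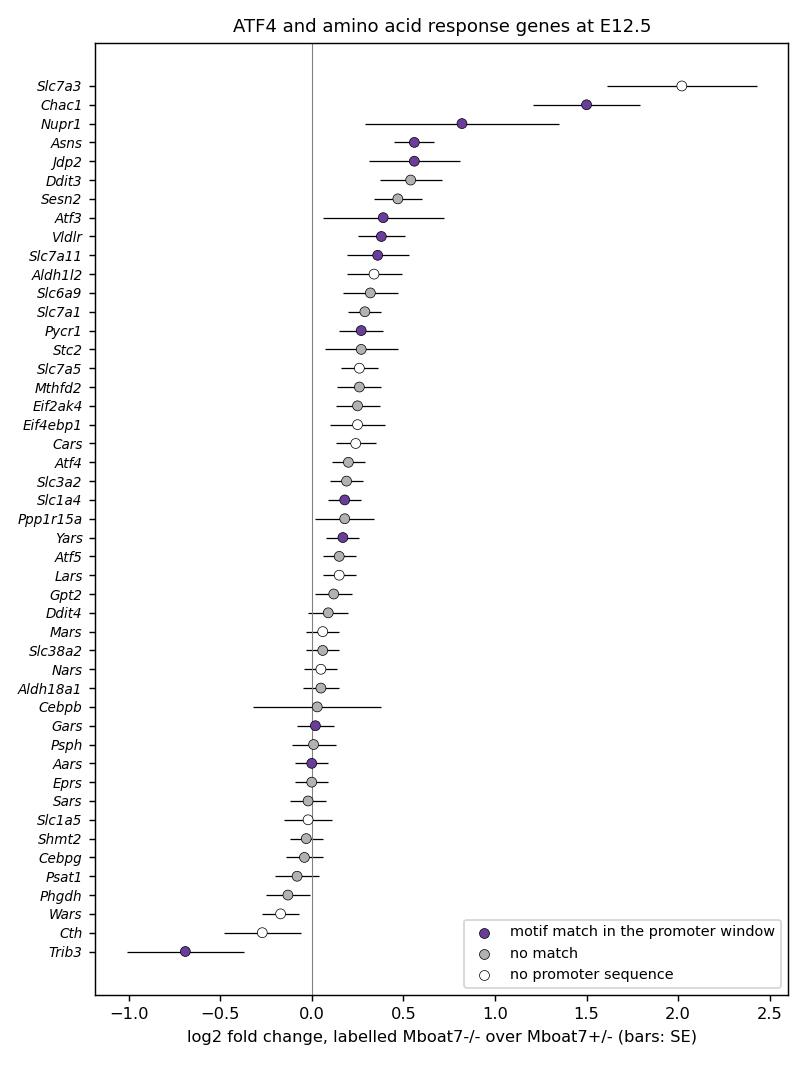
Log2 fold change of labelled Mboat7-/- over Mboat7+/- (horizontal axis, bars are the SE, 2 cortices per genotype) for the 47 ATF4 and amino acid response genes tested, ordered by value. Violet points have the motif in the promoter window, grey points do not and white points had no promoter sequence. Slc7a3 (2.02) and Chac1 (1.50) lie farthest to the right and Trib3 (-0.69) farthest to the left.

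The letters TGATGNAAN, used here for the C/EBP-ATF response element that ATF4 binds, were present on either strand in the promoter window of 14 of 37 genes of this list with a RefSeq promoter (37.8%), against 4.5% of 27025 genes. Of the 36 with a promoter that were tested, the 13 with the letters had a median log2 fold change of 0.36 and the 23 without had 0.12, with 8 and 9 higher beyond the replicates. A match is a description of the letters and not of binding. The stretches around the match are printed for 3 higher members with the letters, for Hrk, an apoptosis gene outside the list, and for Trib3, the member in the opposite direction, since genes on both sides carried the letters. They read 5′ to 3′ along the gene (RefSeq, GRCm38.p6), with the match in capitals, and Slc7a11 has matches on both strands.
Chac1 (chr2:119351003-119351101, plus strand): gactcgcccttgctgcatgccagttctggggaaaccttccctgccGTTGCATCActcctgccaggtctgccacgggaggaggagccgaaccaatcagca
Asns (chr6:7693179-7693277, minus strand): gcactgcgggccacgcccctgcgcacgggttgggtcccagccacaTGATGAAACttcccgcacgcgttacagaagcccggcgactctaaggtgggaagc
Slc7a11 (chr3:50443608-50443724, minus strand): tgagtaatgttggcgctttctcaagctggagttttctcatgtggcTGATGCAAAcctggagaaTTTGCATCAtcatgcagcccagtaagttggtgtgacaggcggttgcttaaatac
Hrk (chr5:118169605-118169703, plus strand): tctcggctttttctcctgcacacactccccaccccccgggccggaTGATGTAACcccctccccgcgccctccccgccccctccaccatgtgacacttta
Trib3 (chr2:152344011-152344092, minus strand): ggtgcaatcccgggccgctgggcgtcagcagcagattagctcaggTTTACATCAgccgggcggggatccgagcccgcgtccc
Slc7a11, the cystine transporter gene, had 205, 187, 248 and 294 counts (0.36).

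In the sensor branch upstream of ATF4, Eif2ak3, which encodes the kinase PERK, had 709, 673, 1000 and 1021 counts (0.44), and Eif2ak4, the amino acid sensor GCN2, had 503, 558, 624 and 732 (0.25). PERK transcripts did not overlap between genotypes, but the adjusted p was 0.726 without and 0.488 with the block. In the folding arm of the endoplasmic reticulum response, 2 of 25 genes were higher and 0 lower at an unadjusted p under 0.05, with a median of 0.01. The chaperone Hspa5 was at -0.01, Hsp90b1 at 0.06, Xbp1 at -0.04 and Dnajb9 at 0.01. Herpud1, which serves degradation of misfolded proteins, was the other higher gene (552, 528, 767 and 681 counts, 0.31). None of 29 mTOR pathway genes reached an unadjusted p under 0.05 in either direction, and their median was -0.07.

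Of 41 p53 and apoptosis genes, 7 were higher and 1 lower at an unadjusted p under 0.05, and 11 were higher and 5 lower beyond the replicates, with a median of 0.07. Hrk, a BH3-only activator of apoptosis known from neurons deprived of growth factors, had 112, 84, 232 and 292 counts. Each labelled Mboat7-/- value exceeded each control by more than the replicates differed (1.31 ± 0.22, adjusted p = 0.178 without and 0.00155 with the block). Other BH3-only genes were at 0.42 for Bbc3 (117, 138, 189 and 179), 0.27 for Bcl2l11, -0.09 for Bmf and -0.12 for Pmaip1. The p53 targets Cdkn1a (466, 521, 710 and 631, 0.34), Ccng1 (0.29) and Eda2r (0.66) were higher beyond the replicates, and Mdm2, a further target, was at 0.04. Trp53 was at -0.01, Bak1 at -0.28 and Bax at -0.14, with Bax lower beyond the replicates (81.8, 84.1, 76.2 and 74.3 CPM). The median of the list was 0.05 without Mboat7+/- replicate 2 and 0.03 without labelled Mboat7-/- replicate 2.

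Lower values were also seen in several genes known from the hypothalamus. Otp, a homeobox gene of hypothalamic neurons, had 368, 182, 116 and 82 counts (-1.59 ± 0.32, adjusted p = 0.404 without and 2.99e-05 with the block). Both labelled Mboat7-/- values lay below both controls, which themselves differed widely. Sim1, which acts with Otp in the same neurons, had 46, 41, 24 and 8 (-1.54), and the signal gene Shh had 221, 257, 170 and 142 (-0.72). Uncx (203, 239, 162 and 127, -0.72) and Irs4 (117, 121, 92 and 55, -0.80) were placed likewise. A list of 28 hypothalamic and preoptic genes was drawn up after these values were seen, and so supports nothing by itself. Of its 16 members tested, 5 were lower and 1 higher at an unadjusted p under 0.05, and the median was -0.27, or between -0.25 and -0.14 with any 1 cortex left out. Nkx2-1 was at -0.20 (1582, 1612, 1501 and 1501 counts), Arnt2 at -0.06, Lhx9 at -0.04 and Pomc at -0.13, whereas Sst had 317, 258, 391 and 616 (0.70). The other 12 members were below the count filter. How much hypothalamic or preoptic tissue each dissection held was not tested.

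Genes of the ventral telencephalon, which lies nearest to the cortex on that side, had no shared direction, with 1 of 22 higher and 2 lower at an unadjusted p under 0.05 and a median of 0.00. Gsx1 (99, 117, 85 and 59 counts, -0.69) and Olig2 (-0.25) were the lower ones, while Dlx1 and Gsx2 were at 0.00 and Dlx2 at -0.07. Of 29 forebrain patterning genes, 0 were higher and 3 lower, with a median of -0.06. Wnt7b had 3631, 4305, 3669 and 3232 counts (-0.31). Mab21l2, an eye and midbrain gene, had 63, 63, 32 and 25 (-1.25). Dlk1, an imprinted gene for a Notch-like membrane protein, had 2069, 2392, 1732 and 1389 (-0.62 ± 0.11, adjusted p = 0.297 without and 0.00881 with the block), and over 40 imprinted genes 1 was higher and 2 were lower.

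Markers of the cortical cell classes were compared next. Of 23 radial glial genes, 1 was higher and 2 were lower at an unadjusted p under 0.05, 2 were higher and 4 lower beyond the replicates, and the median was -0.04. Pax6, which keeps radial glial cells cortical, had 2179, 2157, 2719 and 2706 counts (0.22), and Nes, the intermediate filament of these cells, had 14853, 17167, 14550 and 12970 (-0.32). Sox2 was at -0.07, Vim at 0.02 and Fabp7 at -0.13, so values of these markers lay on both sides of 0. Among 17 IPC genes, 3 were higher and 1 lower, and 5 were higher and 2 lower beyond the replicates, with a median of 0.09. That median was 0.10 without Mboat7+/- replicate 2 and 0.04 without labelled Mboat7-/- replicate 2. With the block, 2 were higher and 0 lower at an unadjusted p under 0.05. The commitment gene Neurog2 had 3824, 3832, 4595 and 4850 counts (0.20) and Neurod1 616, 607, 765 and 834 (0.28), whereas Eomes, the usual marker of IPCs, was at 0.03 with 2982, 3140, 3187 and 3539. Of 26 neuronal genes, 2 were higher and 0 lower, and 1 was higher and 1 lower beyond the replicates. Their median of 0.11 became 0.04 with the length and GC trend removed and 0.02 without Mboat7+/- replicate 2. Tbr1 was at 0.02, Bcl11b at 0.22, Dcx at 0.18 and Tubb3 at -0.14. Reln, the secreted signal of Cajal-Retzius cells, had 2392, 2001, 2806 and 3235 (0.35), and 2 of 14 genes of those cells were higher and 0 lower, with 5 higher and 2 lower beyond the replicates and a median of -0.01. That median ranged from -0.08 to 0.04 with any 1 cortex left out.

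S phase genes lay slightly lower, with 35 of 38 log2 fold changes below 0 and a median of -0.16. Of these, 2 were lower and 0 higher at an unadjusted p under 0.05 and 10 were lower beyond the replicates, the helicase subunit Mcm2 with 5820, 6208, 5934 and 5330 counts (-0.20) among them. The median was -0.09 without Mboat7+/- replicate 2 and -0.07 without labelled Mboat7-/- replicate 2. The difference within a genotype was as large, with a median of 0.11 between the Mboat7+/- replicates and -0.17 between the labelled Mboat7-/- replicates. Of 38 M phase genes, 0 were higher and 0 lower at an unadjusted p under 0.05, with a median of -0.07. The 38 replication histone genes tested of 68 had a median of -0.04, and poly(A) selection captures few of these transcripts. Genes of primary microcephaly had 1 of 31 higher and 0 lower, with a median of 0.02. Mfsd2a, a lysolipid transporter of brain vessels on that list, had 460, 481, 654 and 624 counts (0.33).

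**Figure D3:**
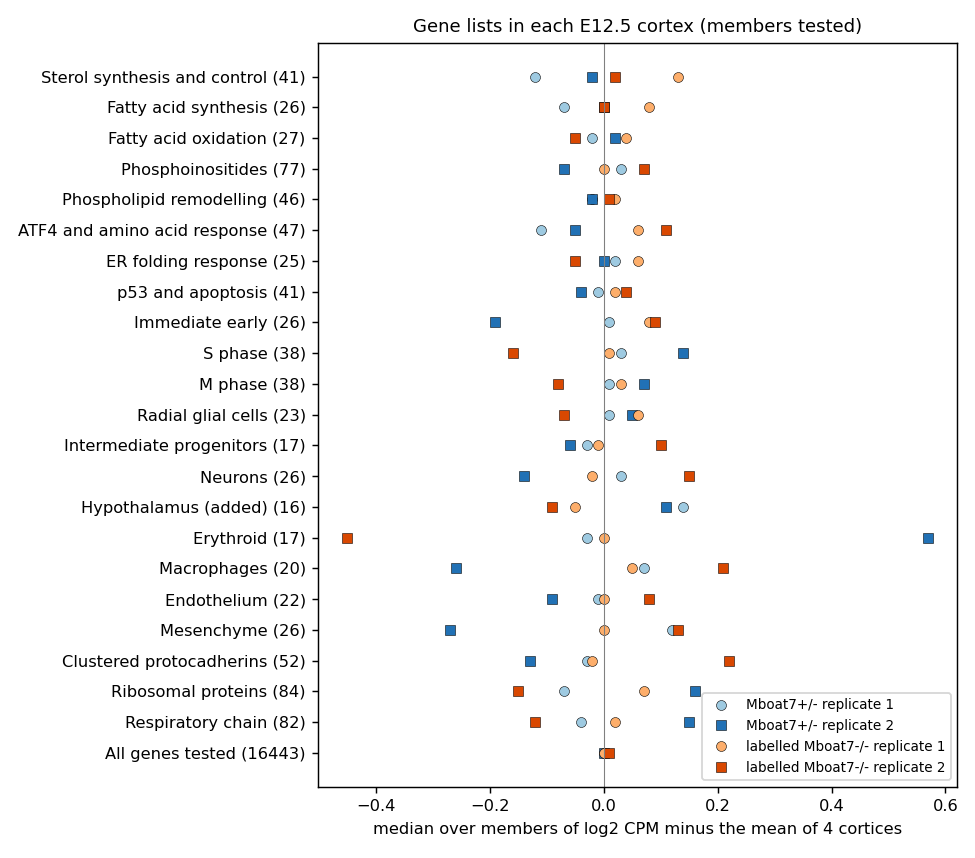
Median, over the members tested of each gene list (number in parentheses), of log2 CPM minus the mean of the 4 cortices (horizontal axis), for each of the 4 E12.5 cortices. Colours mark genotype and shapes the replicate. In the sterol and the ATF4 lists both labelled Mboat7-/- cortices lie to the right of both controls. The same holds for the remodelling, p53, immediate early, IPC, endothelium and protocadherin lists, some by very small gaps. In the hypothalamic list both lie to the left, and so they do in the S phase list, there by a very small gap. In the erythroid, ribosomal, respiratory chain, neuron and mesenchyme lists replicate 2 of the 2 genotypes lies at opposite ends and both replicates numbered 1 lie between.

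Blood genes showed how far single cortices carried a difference. All 17 erythroid genes tested had log2 fold changes below 0, 9 were lower at an unadjusted p under 0.05, and the median was -0.51. Yet 3 stood beyond the replicate difference. The embryonic globin gene Hbb-y had 44443, 68052, 50041 and 31271 counts and Hbb-bh1 1725, 3507, 1995 and 740, so Mboat7+/- replicate 2 was high, labelled Mboat7-/- replicate 2 was low and both replicates numbered 1 were alike. The median difference between the 2 Mboat7+/- cortices was 0.56 and that between the labelled Mboat7-/- cortices -0.46. The median between genotypes was -0.21 without Mboat7+/- replicate 2 and -0.32 without labelled Mboat7-/- replicate 2. Hbb-bh1 had an adjusted p of 0.953 without and 0.000656 with the block.

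Macrophage genes had the reverse arrangement in their medians per cortex. Of 20 tested, 18 had values above 0, 4 were higher and 0 lower at an unadjusted p under 0.05, and 6 were higher and 0 lower beyond the replicates. Their median of 0.19 was 0.11 without Mboat7+/- replicate 2 and 0.17 without labelled Mboat7-/- replicate 2. Cx3cr1, a microglial receptor, had 170, 154, 224 and 238 counts (0.40) and Tyrobp 36, 29, 54 and 66 (0.78). Of 22 endothelial and mural genes, 1 was higher and 1 lower, the higher one being the pericyte gene Rgs5 with 576, 505, 748 and 1180 (0.73, adjusted p = 0.953 without and 0.0189 with the block). Pecam1, Cdh5 and Kdr lay between 0.05 and 0.13. Of 26 mesenchymal genes, 1 was higher and 0 lower, with a median difference of -0.33 within Mboat7+/- that exceeded the 0.10 between genotypes, and -0.07 between genotypes without Mboat7+/- replicate 2. The choroid plexus gene Ttr had 2792, 2601, 2220 and 5730 counts, and so was set by labelled Mboat7-/- replicate 2. The part of these tissue differences in the results on neural genes was not tested.

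**Figure D4:**
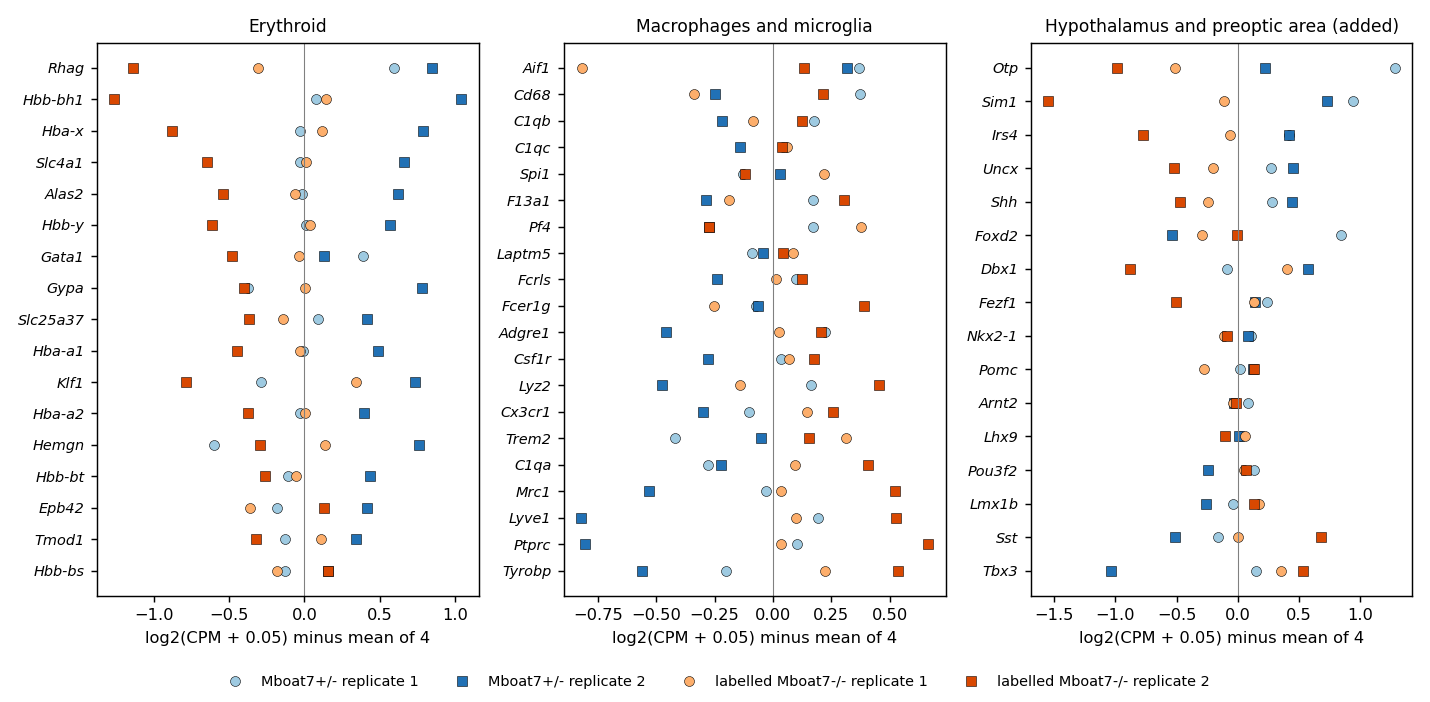
Level of each tested erythroid, macrophage and hypothalamic or preoptic gene in the 4 E12.5 cortices, as log2(CPM + 0.05) minus the mean of the 4 (horizontal axis), with colours for genotype and shapes for replicate. Most erythroid genes have Mboat7+/- replicate 2 at the right and labelled Mboat7-/- replicate 2 at the left, whereas Otp, Sim1, Irs4, Uncx and Shh have both control points to the right of both labelled Mboat7-/- points.

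Several other lists had counts near the background or differences as large between replicates. Of 26 immediate early genes, 3 were higher and 0 lower, led by Jun (2430, 2416, 3265 and 3292 counts, 0.33) and Klf6 (827, 731, 1095 and 1056, 0.36), with a median of 0.20 and of -0.25 between the Mboat7+/- replicates. Clustered protocadherins, which give neurons surface identity, had 12 of 52 higher and 0 lower beyond the replicates and a median of 0.22, led by Pcdha5 (30, 20, 69 and 64, 1.30). Their difference between the labelled Mboat7-/- replicates was 0.25, and reads can be shared between these similar genes. Axon guidance genes had 8 of 54 higher and 1 lower at an unadjusted p under 0.05, with Robo2 (1308, 1149, 1539 and 1914) at 0.38 and Sema3a at 0.45. Their median of 0.07 became 0.02 with the length and GC trend removed. It was 0.02 without Mboat7+/- replicate 2 and 0.01 without labelled Mboat7-/- replicate 2.

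Other genes outside these lists were among those with a small p under the block. Cnr1, the cannabinoid receptor, had 1276, 1065, 1582 and 2320 counts (0.63, adjusted p = 0.953 without and 0.027 with the block), and Cabp1, a calcium sensor, had 236, 223, 366 and 596 (0.96, 0.65 and 0.00681). Arrdc3, an arrestin family gene, had 1385, 1042, 1831 and 2386 (0.69, 0.692 and 0.00562). In each, labelled Mboat7-/- replicate 2 was the highest of the 4 cortices.

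Interferon genes had 1 of 16 higher and 0 lower at an unadjusted p under 0.05, and 3 higher and 0 lower beyond the replicates. Of these 16, 14 had values above 0, and the median was 0.19, or between 0.06 and 0.26 with any 1 cortex left out. Glycolysis and hypoxia genes had 3 of 37 higher and 1 lower, adherens junction and polarity genes 1 of 41 and 2, Notch pathway genes 0 of 25 and 3, Golgi and exocyst genes 2 of 70 and 0, chromatin genes 1 of 71 and 0, heat shock genes 0 of 20 and 0, oxidative stress genes 0 of 22 and 0, hem and choroid plexus genes 0 of 17 and 0, and craniofacial genes 1 of 15 and 0. Glycolysis and hypoxia genes nonetheless had 25 of 37 values below 0 and a median of -0.11, or between -0.19 and -0.02 with any 1 cortex left out. Their median difference between the labelled Mboat7-/- replicates was -0.20. In the Notch and junction lists, Dll3, a Notch ligand of IPCs, was at -0.28, Notch3 at -0.22 and the junction gene Shroom3 at -0.29 (993, 1054, 945 and 857 counts). Golga2, which encodes the Golgi protein GM130, was at 0.11 with 1120, 1034, 1140 and 1364 counts. Of 84 ribosomal protein genes, 0 were higher and 0 lower, although 78 had values below 0, and their median of -0.08 compared with 0.24 between the Mboat7+/- replicates and -0.21 between the labelled Mboat7-/- replicates. Without Mboat7+/- replicate 2 that median was 0.05. Respiratory chain genes had 1 of 82 lower and a median of -0.11, and the 13 transcripts of the mitochondrial genome had 1 lower and a median of -0.07. Of 1106 olfactory receptor genes, 1 passed the count filter. Among 22 genes for proteins the study stained, blotted or discussed, 2 were higher and 1 lower at an unadjusted p under 0.05, namely Pax6, Dgke (0.37) and Nes.

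Transcript length moved with the differences. In genes of 500 to 1000 bases the median log2 difference between genotypes was -0.08, in those of 2000 to 3000 bases -0.02 and in those of 8000 bases or more 0.09. The same bins gave 0.17, 0.05 and -0.18 between the 2 Mboat7+/- cortices, and -0.08, -0.02 and 0.08 between the 2 labelled Mboat7-/- cortices, so the slope was steeper within Mboat7+/- than between genotypes. With the joint trend of length and GC content removed, every bin from 500 bases up had a median of -0.02. The same 3 genes were called after the removal, and 30 together with the block. Insig1 stayed at 0.60, Cpt1a at 0.59, Asns at 0.57, Chac1 at 1.54 and Otp at -1.57, while Scd1 went from 0.66 to 0.61 and Pax6 from 0.22 to 0.19.

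**Figure D5:**
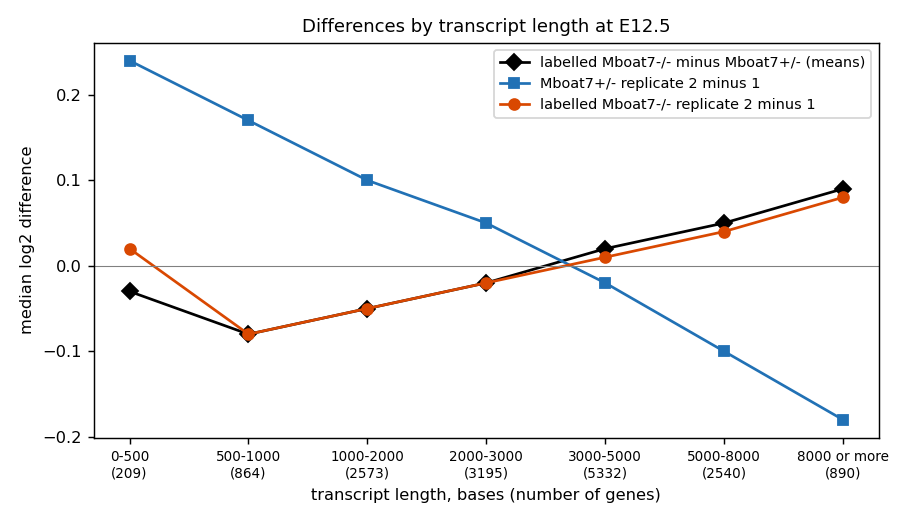
Median log2 difference (vertical axis) in bins of transcript length in bases (horizontal axis, with the number of genes), for the genotype means (black diamonds), the 2 Mboat7+/- cortices (blue squares) and the 2 labelled Mboat7-/- cortices (orange circles). Over genes of 500 bases and more the difference between genotypes rises from -0.08 to 0.09 and lies within 0.01 of that between the labelled Mboat7-/- replicates, while that between the Mboat7+/- replicates falls from 0.17 to -0.18.

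Genes beside Mboat7 were examined because a deletion can touch neighbouring transcripts. Of the 10 tested genes on each side, 0 were higher and 2 lower at an unadjusted p under 0.05, with a median of -0.12. Tsen34, the next gene on 1 side, which encodes a subunit of the tRNA splicing endonuclease, had 2192, 2572, 1890 and 1702 counts (-0.51 ± 0.10, adjusted p = 0.342 without and 0.0908 with the block), and it stood among the 12 leading lower genes. The next gene on the other side, Tmc4, had 14, 15, 37 and 22 counts (0.91), the ribosomal gene Rps9 was at -0.12 and Leng1 at -0.12. Whether the counting used strand is not given in the sources used here, so reads of overlapping transcripts cannot be told apart.

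The same genes at E11.5 came from 4 other embryos. There 0 of 15025 genes were called (0%, edgeR quasi-likelihood test), with 2113 at an unadjusted p under 0.05, and the interaction of stage and genotype had 0 calls among 13716 genes (0%), with 798 at an unadjusted p under 0.05. No difference is therefore shown to be particular to E12.5, and stage and sequencing provider cannot be told apart. The E11.5 cortices also differed in Y-linked counts. In the order used above, Ddx3y had 0, 992, 1321 and 1282 and Eif2s3y 0, 1354, 940 and 1338, so Mboat7+/- replicate 1 stood apart. The part of this in the E11.5 values and in the interaction was not tested. Side by side, the E11.5 log2 fold changes were -0.11 for Insig1, 0.19 for Scd1, 0.25 for Cpt1a, -0.18 for Asns, 0.48 for Chac1, 0.07 for Slc7a3, 0.24 for Hrk, -0.14 for Otp, 0.22 for Dlk1 and -0.14 for Tsen34. List medians at E11.5 were -0.03 for sterol genes, -0.04 for the ATF4 list, 0.04 for p53 and apoptosis genes, -0.02 for S phase genes and 0.16 for the hypothalamic list, beside -0.53 for erythroid genes.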

How the data were processed

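Poly(A) RNA of E12.5 cortices was sequenced on the NovaSeq X Plus by 1 provider. The authors deposited raw read counts per gene with 1 column per cortex, without normalization. The submitters' processing notes name HISAT2 and Subread and the builds mm10 and GRCm39, without versions or roles. The members and the gene lists were chosen with earlier results of these data known, and 1 list (hypothalamus) was added after the values were seen, so list counts are descriptions.

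From the deposited counts, genes with at least 10 counts in 2 or more of the 4 cortices were tested by quasi-likelihood in edgeR 4.0.16 (R 4.3.3, TMM factors, Benjamini-Hochberg adjustment over 16443 genes, prior count 0.125). These genes held 99.89% of all counts. The threshold for a call was an FDR under 0.05 with a log2 fold change of 1 or more either way. Lengths came from GENCODE transcripts, and promoters from RefSeq (GRCm38.p6). The script was tested on simulated data. The batch number in the labels equals the replicate number, and same-numbered deviations had a correlation of -0.16 over 14417 genes. The alternatives tried were DESeq2 1.42.0, normalization by RLE or upper quartile, the earlier quasi-likelihood form of edgeR, other filters, the replicate block, removal of a length and GC trend, and leaving out each cortex. A count of 3 corresponded to 0.13 to 0.144 CPM, and such floors cover counting error only.

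Candidates for naming were Mboat7, every gene with an FDR under 0.05, the proteins studied, the sex genes and cell type markers. So were the 12 higher and 12 lower genes of smallest p with a symbol, at least 1 CPM and a difference beyond the replicates. The 2 leading members of each list in each direction were candidates too. Not every candidate is given a value in the text, and Gapdh and Pcna of the proteins studied are examples. Other members were named for their role, after their values were seen.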

Additional observations from a re-analysis of the deposited data

How the results depend on the processing

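The count of 3 called genes was the same with RLE or upper-quartile normalization, the earlier quasi-likelihood form of edgeR, filterByExpr and the length and GC trend removed. Removing the trend could not move ENSMUSG00000142665 and ENSMUSG00000130346, which had no transcript length. The count was 5 with DESeq2, 21 with the replicate block and 30 with the trend removed together with the block. Each of these calls held the 3 genes. With no filter it was 0 in edgeR (938 of 29986 genes at an unadjusted p under 0.05), and it was also 0 in edgeR with at least 10 counts required in every cortex (636 of 15209), a filter that removes all 3. Leaving out 1 cortex gave 24 to 92 calls, the lone cortex being assumed to vary like the others: 51 without Mboat7+/- replicate 1, 24 without Mboat7+/- replicate 2, 92 without labelled Mboat7-/- replicate 1 and 27 without labelled Mboat7-/- replicate 2. The cause of these increases was not tested. Crossing the replicate numbers, an alternative chosen after seeing the data, gave 26 calls. The interaction of stage and genotype had 0 calls with RLE and with the replicate block (815 and 686 genes at an unadjusted p under 0.05). With 1 cortex left out, the medians lay between 0.13 and 0.21 for the ATF4 list, between 0.03 and 0.06 for p53 and apoptosis genes and between -0.25 and -0.14 for hypothalamic genes. None of the 3 called genes changed direction. List medians were not tested, and some changed sign, such as those of ribosomal proteins (0.05), mesenchyme (-0.07) and phosphoinositide genes (-0.01) without Mboat7+/- replicate 2. At 2 cortices per genotype, small differences in low genes were not detectable. Moderate differences in well-counted genes could also go uncalled, such as Insig1 at 0.60 (edgeR quasi-likelihood test without the block, adjusted p = 0.123).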
